A study of Homo sapiens with 26 samples.

Results

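TNFAIP3 encodes A20, a ubiquitin-editing enzyme, and TNIP1 encodes ABIN1, a ubiquitin-binding adaptor that works with it. The binding of the glucocorticoid receptor (GR) was followed along both genes at 17 of the 10740 regions of 400 bp in the authors' table. A region was assigned to a gene when its midpoint had its nearest protein-coding gene start there, within 100 kb, in GENCODE 44 (hg38). This gave 9 regions for TNFAIP3 and 8 for TNIP1. The choice rests on position alone, but both genes were chosen with earlier results of these data known. Among the 4261 genes with at least 1 region, the median number was 1, and 10 genes had more regions than TNFAIP3 and 16 more than TNIP1.

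The cells were A549, an established human lung carcinoma line (genotype WT in the labels), infected with 1 of 2 adenoviruses. Ad-GFP carries green fluorescent protein and is the control, and Ad-IκBαΔN carries what the submitters call an NF-κB inhibitor. Cells of each virus were then not stimulated (NS), given 300 nM budesonide, a synthetic glucocorticoid, for 1 h (Bud), or given budesonide with 1 ng/ml IL1B, the cytokine interleukin-1β, for 1 h (I+B). GR chromatin immunoprecipitation with sequencing was done on 2 libraries per group from 2 independent experiments, 12 GR libraries in all, and the study asked how NF-κB affects where GR binds. Every group is of this 1 tumour line and every group carries an adenovirus, so no uninfected cells stand beside them. A table of GR binding cannot check the line against its expression markers, and that was not tested.

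NF-κB is held in the cytoplasm by IκB proteins until signals such as IL1B lead to their destruction. The signal from the IL1B receptor travels over chains of ubiquitin, which gather the kinases that release NF-κB. A20 edits and binds such chains and so limits the signal, ABIN1 brings A20 to them, and both genes are known targets of NF-κB, which closes a feedback loop. GR, once bound by a glucocorticoid, binds DNA at glucocorticoid response elements (GREs) or together with other transcription factors.

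The values are the authors' log2 binding intensities, 1 per region and group, so the libraries behind a value cannot be separated. No replicate error, p-value, SD or n can be given for any difference, and each difference describes these values only. Read as log2(signal + 1), they give the signal printed below, taken here as a mean coverage per base of the region. This reading was worked out from the values, and those of untreated Ad-IκBαΔN cells did not show the whole multiples behind it. A difference of at least 1 on the log2 scale, that is 2-fold, was called higher or lower. Over all regions the median signal was 7.58 untreated, 21.7 with Bud and 45.7 with I+B in Ad-GFP, and in Ad-IκBαΔN it was 7.79, 21.6 and 23.6. The sources used here do not say how the groups were scaled to each other, and a general difference in binding and one in scale cannot be told apart. The percentile of a region among all regions of its own group does not depend on that scale and is given beside the main results. In a population of cells, fewer cells with bound GR and less GR per bound cell cannot be told apart either.

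TNFAIP3 (ENSG00000118503.18) lies on the plus strand of chromosome 6, 137867214 to 137883314, and its 9 regions spanned 96.6 kb. The outermost lay 90.3 kb upstream (chr6:137776745-137777144) in an intron of the long non-coding RNA gene LINC02539. Intergenic sequence held 3, at 62.3 kb (chr6:137804668-137805067), 55.6 kb (chr6:137811393-137811792) and 53.8 kb upstream (chr6:137813244-137813643). Another 2 lay 18.3 kb (chr6:137848691-137849090) and 17.7 kb upstream (chr6:137849309-137849708) in an intron of WAKMAR2, a long non-coding RNA gene on the opposite strand, with midpoints 0.618 kb apart. The start region (chr6:137866969-137867368) covers the gene start and the beginning of its 5′ untranslated region and holds the starts of 5 of the 9 annotated transcripts. The last 2 lay in introns of TNFAIP3, 3.8 kb (chr6:137870813-137871212) and 6.32 kb downstream (chr6:137873336-137873735). The authors placed the region at 90.3 kb in their class "unchanged" and the other 8 in the class "increasing". The sources used here do not say how the classes were defined.

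TNIP1 (ENSG00000145901.16) lies on the minus strand of chromosome 5, 151029945 to 151093577, and its 8 regions spanned 36.7 kb. The gene has 21 annotated transcripts with several groups of starts, and a GR region lay on 3 of these groups. The start region (chr5:151093548-151093947) holds the outermost transcript start at position 151093577. In the untranslated sequence of TNIP1, a region 6.35 kb downstream (chr5:151087029-151087428) holds 3 starts between 151087158 and 151087166, and a region 12.5 kb downstream (chr5:151080879-151081278) holds 8 starts between 151081015 and 151081084. Introns of TNIP1 held the regions 7.76 kb (chr5:151085616-151086015), 10.0 kb (chr5:151083346-151083745) and 25.3 kb downstream (chr5:151068040-151068439). Upstream of the gene lay an intergenic region at 2.01 kb (chr5:151095387-151095786) and a region at 11.3 kb (chr5:151104701-151105100) in an intron of ANXA6, the annexin A6 gene. The region at 25.3 kb was of the class "unchanged" and the other 7 were "increasing".

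The sequences of the regions on which the results turn are shown first, from the hg38 reference, 5′ to 3′ on the strand of the gene. Capitals mark matches to the GRE, written as AGAACA and TGTTCT with any 3 bases between and with at most 2 mismatches in these 12 bases, to the κB consensus of NF-κB sites, or to the AP-1 motif (TGACTCA or TGAGTCA), each searched on both strands. At TNFAIP3 these are the region with the highest mean signal, the 1 GRE match, the start region up to the base before the gene start, and the intronic region with the highest signal with I+B under Ad-IκBαΔN.
TNFAIP3 55.6 kb upstream, AP-1 match in capitals, chr6:137811443-137811742, plus strand: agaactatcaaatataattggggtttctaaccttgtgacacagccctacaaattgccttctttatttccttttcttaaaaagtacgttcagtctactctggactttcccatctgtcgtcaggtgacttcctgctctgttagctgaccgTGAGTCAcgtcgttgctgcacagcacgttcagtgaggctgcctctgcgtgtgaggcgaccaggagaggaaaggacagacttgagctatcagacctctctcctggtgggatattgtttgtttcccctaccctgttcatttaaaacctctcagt
TNFAIP3 62.3 kb upstream, GRE match in capitals, chr6:137804870-137804899, plus strand: ccttgccTGAACATCCTGTACTttaaatat
TNFAIP3 start region, upstream part, AP-1 match first and then 3 κB matches, chr6:137866969-137867213, plus strand: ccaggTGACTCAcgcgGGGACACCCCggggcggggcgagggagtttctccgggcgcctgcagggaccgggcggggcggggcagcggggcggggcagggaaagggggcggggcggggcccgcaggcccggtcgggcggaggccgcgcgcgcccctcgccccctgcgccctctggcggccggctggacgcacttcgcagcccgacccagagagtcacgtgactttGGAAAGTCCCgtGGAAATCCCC
TNFAIP3 6.32 kb downstream, κB match in capitals, chr6:137873386-137873685, plus strand: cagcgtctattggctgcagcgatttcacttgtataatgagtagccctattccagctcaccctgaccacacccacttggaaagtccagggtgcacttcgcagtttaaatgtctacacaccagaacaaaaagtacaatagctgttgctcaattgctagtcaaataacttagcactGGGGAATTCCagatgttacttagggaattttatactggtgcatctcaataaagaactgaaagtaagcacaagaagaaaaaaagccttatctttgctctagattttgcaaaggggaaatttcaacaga

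At TNIP1 the regions shown are the pair with the largest response to added IL1B in Ad-GFP, which hold no match, and the κB matches of both regions on the inner transcript starts.
TNIP1 start region, upstream part, no match, chr5:151093598-151093897, minus strand: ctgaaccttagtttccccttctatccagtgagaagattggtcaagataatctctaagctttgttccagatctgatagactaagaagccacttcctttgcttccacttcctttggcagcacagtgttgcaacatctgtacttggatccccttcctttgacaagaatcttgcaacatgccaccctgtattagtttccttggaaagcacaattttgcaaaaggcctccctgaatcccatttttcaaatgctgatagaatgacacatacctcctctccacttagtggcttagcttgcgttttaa
TNIP1 7.76 kb downstream, no match, chr5:151085666-151085965, minus strand: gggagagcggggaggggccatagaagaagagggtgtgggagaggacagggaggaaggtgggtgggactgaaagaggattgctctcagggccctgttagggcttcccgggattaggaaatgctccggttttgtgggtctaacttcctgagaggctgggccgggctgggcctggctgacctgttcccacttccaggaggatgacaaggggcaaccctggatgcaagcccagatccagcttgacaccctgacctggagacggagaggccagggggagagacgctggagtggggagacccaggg
TNIP1 6.35 kb downstream, overlapping κB matches in capitals, chr5:151087198-151087227, minus strand: ctccatctcGGGGAATTCCCCtcctgccta
TNIP1 12.5 kb downstream, κB match in capitals, chr5:151081057-151081086, minus strand: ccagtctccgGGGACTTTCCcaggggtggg

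A κB match was found in 8 of the 17 regions, 3 of 9 at TNFAIP3 and 5 of 8 at TNIP1, against 21.3% of all regions and 40.3% of the increasing class. A GRE match was found in 1 of 17, against 14.7% and 7.18%, and none of the 8 TNIP1 regions held one. AP-1 matches were found in 4 of 17, against 22.8% and 25.0%. The TNFAIP3 start region had 3 κB matches, of which 2, GGGACTTTCC and GGGGATTTCC on the minus strand, lay next to each other just before the gene start. The site GGGACTTTCC was also the κB match 12.5 kb into TNIP1, at position 151081067 to 151081076, within the stretch of transcript starts. At 6.35 kb into TNIP1, 3 overlapping matches made up 1 symmetric run. A match describes letters only and is no evidence of bound NF-κB.

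With budesonide alone, the regions counted for TNFAIP3 and those counted for TNIP1 differed in GR signal. A region in a TNIP1 intron, nearer to the start of the neighbouring gene GPX3, was not counted. It had 3.57 untreated and 31.2 with Bud in Ad-GFP. In the table as deposited, GR signal of Ad-GFP cells was 2-fold above untreated cells at 3 TNFAIP3 regions and 2-fold lower at 3 others, and no TNIP1 region was 2-fold higher or lower, where 57.9% of all regions were higher and 8.14% lower. The TNIP1 call depended on the scale: all 8 regions were 2-fold lower with groups centred on a common median, at -2.17 to -1.07, and again with the unchanged class as centre, at -2.69 to -1.59. Centred on that class no region of either gene was 2-fold higher with Bud and 14 of the 17 were lower. The 3 high regions were those at 62.3 and 55.6 kb upstream and 6.32 kb downstream, with Bud signals of 19.1, 56.0 and 42.9, against 1.85 to 14.0 at the other 14 regions of both genes. At 55.6 kb upstream, control-virus cells had 6.92 untreated and 56.0 with Bud, a log2 difference of 2.85, and Ad-IκBαΔN cells 7.63 and 48.6, a difference of 2.52. The intronic region at 6.32 kb had 6.26 and 42.9 in Ad-GFP, a difference of 2.60, and 7.16 and 36.0 in Ad-IκBαΔN, 2.18. At 62.3 kb upstream, where the GRE match lies, the signals were 3.54 and 19.1, then 8.42 and 23.2, with differences of 2.15 and 1.36. Its Ad-GFP difference was 0.74 with a common median and 0.22 with the unchanged class as centre. Under Ad-IκBαΔN the 3 again lay above the other 14 with Bud, at 23.2 to 48.6 against 4.38 to 19.8. Within the Bud groups those at 55.6 and 6.32 kb ranked at percentiles 84.8 and 77.6 with the control virus and 84.4 and 74.9 under Ad-IκBαΔN, while that at 62.3 kb was near the middle of all regions, at 45.3 and 53.4.

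The 3 lower TNFAIP3 regions were weak ones, at 53.8 and 18.3 kb upstream and 3.8 kb downstream. With the control virus their signals were 8.75, 10.5 and 6.73 untreated and 2.85, 1.85 and 2.21 with Bud. In Ad-IκBαΔN they were 7.66, 9.97 and 6.95, then 6.07, 4.38 and 4.71, and only that at 18.3 kb was 2-fold lower. Centring the groups on a common median turned the 3 higher and 3 lower of the 17 regions in Ad-GFP into 2 and 13. The median log2 difference was -0.55 for the 17, -0.06 for the increasing class and 1.37 for all regions. In Ad-IκBαΔN 5 of 17 were higher and 1 lower, against 59.3% and 1.06% of all regions, and 1 and 9 after the same centring. The 2 regions added there were at 90.3 kb upstream of TNFAIP3, with 3.70 untreated and 15.2 with Bud, and 12.5 kb into TNIP1, with 6.75 and 19.8.

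**Figure D1:**
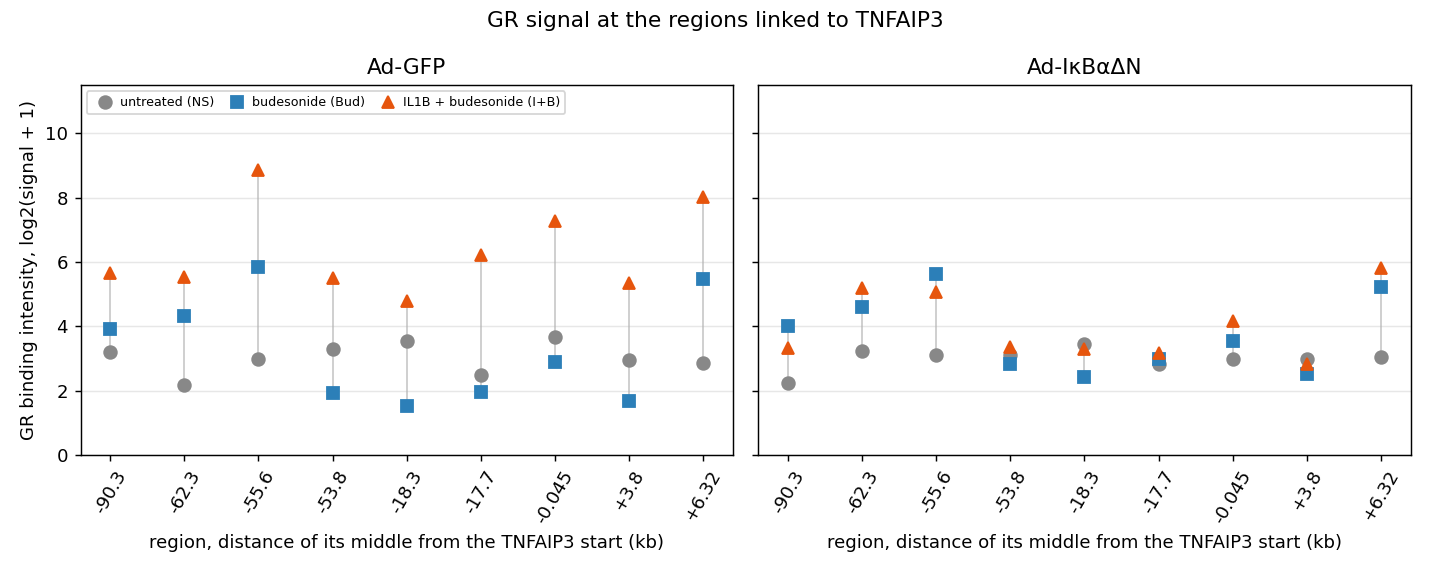
GR binding intensity, log2(signal + 1), at the 9 TNFAIP3 regions with the control virus Ad-GFP at left and Ad-IκBαΔN at right; the x axis orders regions by distance of their middle from the gene start in kb (evenly spaced, not to scale), points are 1 authors' value per group and grey lines join the treatments of a region. With I+B the region at -55.6 kb stood highest in Ad-GFP, at 462 in signal, and that at +6.32 kb in Ad-IκBαΔN, at 55.3.

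With IL1B added to budesonide, every one of the 17 regions had more GR signal in control-virus cells than with budesonide alone. Each difference was at least 2-fold in the table as deposited, where 48.9% of all regions were called higher and 6.07% lower. With the scale steps of the groups divided out, 14 of the 17 stayed 2-fold higher, while all regions split into 3253 higher and 4695 lower, against 5252 and 652 as deposited. The median log2 difference was 3.29 at TNFAIP3 and 3.62 at TNIP1, against 2.95 for the increasing class and 0.92 for all regions. Since 15 of the 17 are of the increasing class, a class that may have been defined on the same signal, the direction of these differences is a description and no test of the genes.

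At TNFAIP3 the highest signal with I+B in Ad-GFP was at 55.6 kb upstream, 462 against 56.0 with Bud, a log2 difference of 3.02. That signal was at percentile 99.7 of the group. Next came the intronic region at 6.32 kb with 257 against 42.9, a difference of 2.55 and percentile 98.3. The start region had 153 against 6.47, a difference of 4.36, and rose in rank from percentile 23.4 with Bud to 94.1 with I+B. The 2 strongest Bud regions thus stayed the strongest with I+B, and the start region joined them from a low level.

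The other 6 TNFAIP3 regions were much weaker with I+B in Ad-GFP, between 26.9 and 74.1. At 17.7 kb upstream the signal was 74.1 against 2.86 with Bud, a difference of 4.28, while its neighbour at 18.3 kb had 26.9 against 1.85, a difference of 3.29. The regions at 53.8 kb upstream and 3.8 kb downstream had 43.9 and 39.6, with differences of 3.54 and 3.66. The smallest differences were 1.74 at 90.3 kb, with 13.9 and 48.9, and 1.19 at 62.3 kb, with 19.1 and 44.9. At 62.3 kb the percentile was 45.3 with Bud and 49.1 with I+B, so this region stayed near the middle in rank. Dividing out the scale steps of the groups turned its difference to -0.33.

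Signal at the TNIP1 start region was 357 with I+B and the control virus, against 9.81 with Bud, a log2 difference of 5.05. The intronic region at 7.76 kb had 251 against 5.74, a difference of 5.22. They went from percentiles 32.0 and 20.2 with Bud to 99.3 and 98.1 with I+B. Of all 10740 regions, 119 had a larger difference than the start region and 80 a larger one than the region at 7.76 kb. Both regions, as printed above, lack a match to any of the 3 motifs.

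Among the other TNIP1 regions, that at 12.5 kb on the inner transcript starts had 168 with I+B against 14.0, a difference of 3.49 and percentile 95.0. At 10.0 kb, with a κB and an AP-1 match, the signals were 116 and 7.69, a difference of 3.75 and percentile 89.3. The region at 6.35 kb, on the other group of inner starts and with the symmetric κB run, had 50.4 and 6.28, and its difference of 2.82 was the smallest at TNIP1. The remaining 3 had 79.6 at 11.3 kb upstream, 67.0 at 2.01 kb upstream and 53.5 at 25.3 kb downstream, with differences of 3.14, 3.06 and 3.85. At TNIP1 the region with the most κB matches, which overlap in 1 run, thus had the lowest signal with I+B and the smallest difference in Ad-GFP. The TNFAIP3 start region, with 3 κB matches that do not overlap, had the largest difference at that gene, 4.36. A link between matches and signal was not tested.

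**Figure D2:**
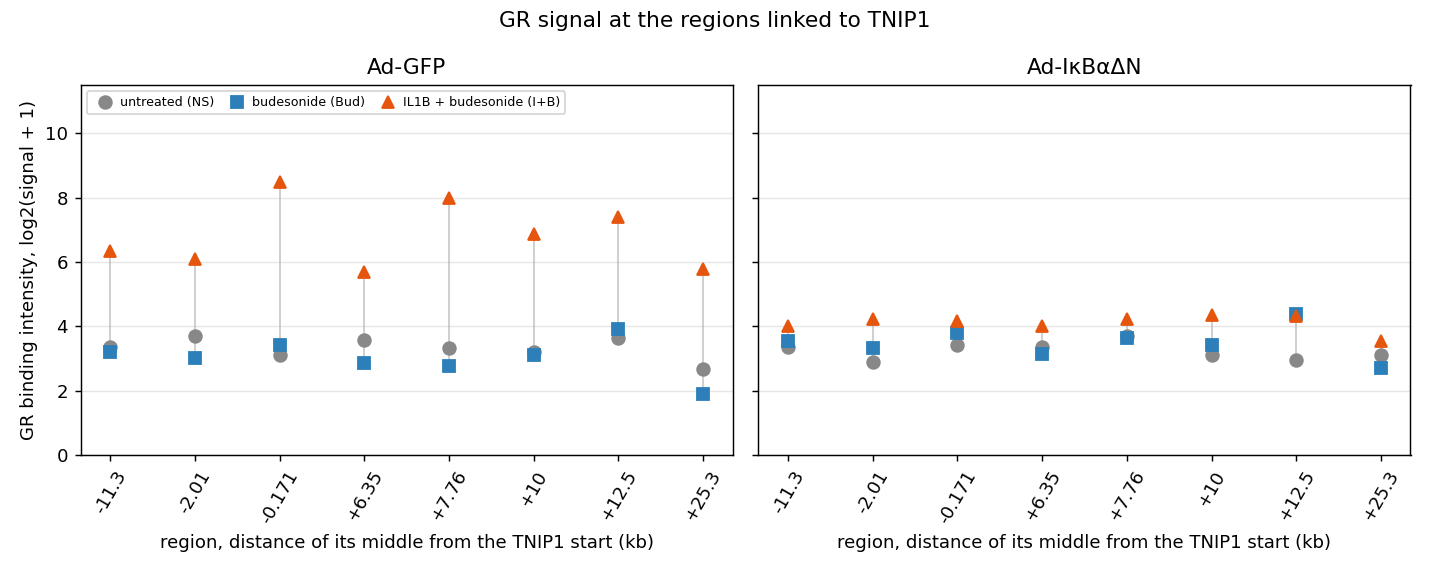
GR binding intensity, log2(signal + 1), at the 8 TNIP1 regions with the control virus Ad-GFP at left and Ad-IκBαΔN at right; the x axis orders regions by distance of their middle from the gene start in kb (evenly spaced, not to scale), points are 1 authors' value per group and grey lines join the treatments of a region. In Ad-GFP every region was higher with I+B, up to 357 at the start, while in Ad-IκBαΔN no region exceeded 19.8.

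The same region signals, summed over a locus, restate the contrast between the genes and add no separate support. Sums of different treatments rest on the deposited scale. At TNFAIP3 the 9 regions summed to 67.2 untreated, 148 with Bud and 1150 with I+B in Ad-GFP. At TNIP1 the 8 regions summed to 74.0, 61.6 and 1141. The sums with I+B were close, while with Bud alone TNFAIP3 had more than TNIP1. The TNIP1 sums leave out the region in its intron nearer to GPX3, with a signal of 31.2 with Bud in Ad-GFP. The region at 55.6 kb upstream held 37.8% of the TNFAIP3 sum with Bud and 40.2% with I+B, and the start region 4.37% and 13.3%. At TNIP1 the start region and that at 7.76 kb held 15.9% and 9.32% of the sum with Bud and 31.3% and 22.0% with I+B, so the spread of GR along TNIP1 was more uneven with I+B. Against untreated Ad-GFP cells, all 17 regions were at least 2-fold higher with I+B, where 93.7% of all regions were. This rested on the deposited scale: 6 of 17 were higher after quantile normalization, and the region at 18.3 kb upstream of TNFAIP3 was then lower, at -1.51.

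In Ad-IκBαΔN cells the differences with IL1B added to budesonide were smaller in size than in Ad-GFP at every region, as deposited. Among all regions they ranked from percentile 3.43, at 90.3 kb upstream of TNFAIP3, to 88.6, at 10.0 kb into TNIP1. None of the 17 was 2-fold higher or lower as deposited, where 9.65% of all regions were higher and 0.94% lower. With the steps divided out, 2 TNFAIP3 regions were 2-fold lower, at -1.22 for 90.3 kb and -1.14 for 55.6 kb upstream, and the first also after quantile normalization, at -1.11. The differences lay between -0.71 and 0.87 at TNFAIP3 and between -0.05 and 0.94 at TNIP1, with medians of 0.52 and 0.71, against 0.53 for the increasing class and 0.26 for all regions. The summed signal was 156 with Bud and 181 with I+B at TNFAIP3, and 86.7 and 131.5 at TNIP1. Against untreated cells of this virus, 8 of 17 regions were 2-fold higher with I+B and 0 lower, where 69.1% and 0.0466% of all regions were. Centred on the unchanged class, 0 were higher and 9 lower.

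The TNFAIP3 regions called higher with Bud in Ad-GFP as deposited differed among themselves under Ad-IκBαΔN. At 55.6 kb upstream the signal was 48.6 with Bud and 32.2 with I+B, a log2 difference of -0.58, and its percentile went from 84.4 to 67.2. At 6.32 kb downstream it was 36.0 and 55.3, a difference of 0.61, from percentile 74.9 to 87.5. At 62.3 kb upstream it was 23.2 and 35.6, a difference of 0.60, from percentile 53.4 to 72.0. So the region at 55.6 kb fell in rank while the other 2 of these regions moved up. At 90.3 kb upstream the signal was 15.2 and 8.93, a difference of -0.71, from percentile 37.4 to 5.93.

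The start regions stayed low in Ad-IκBαΔN, at 10.7 and 16.8 for TNFAIP3 and 12.9 and 16.8 for TNIP1. At 7.76 kb into TNIP1 the signals were 11.6 and 17.6, and at 12.5 kb 19.8 and 19.1. The other 5 TNIP1 regions had 10.7 to 19.4 with I+B, and all 8 lay between percentiles 11.3 and 39.6 of their group. The 4 TNFAIP3 regions at 53.8, 18.3 and 17.7 kb upstream and 3.8 kb downstream had 9.17, 8.81, 8.03 and 6.07 with I+B. As deposited these were near their untreated signals of 7.66, 9.97, 6.14 and 6.95. In rank they were lower, at percentiles 6.55, 5.59, 4.03 and 1.11 against 46.8, 88.8, 14.3 and 29.4 untreated. With groups centred on a common median all 4 were 2-fold below untreated cells, and with the steps divided out 0 were.

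**Figure D3:**
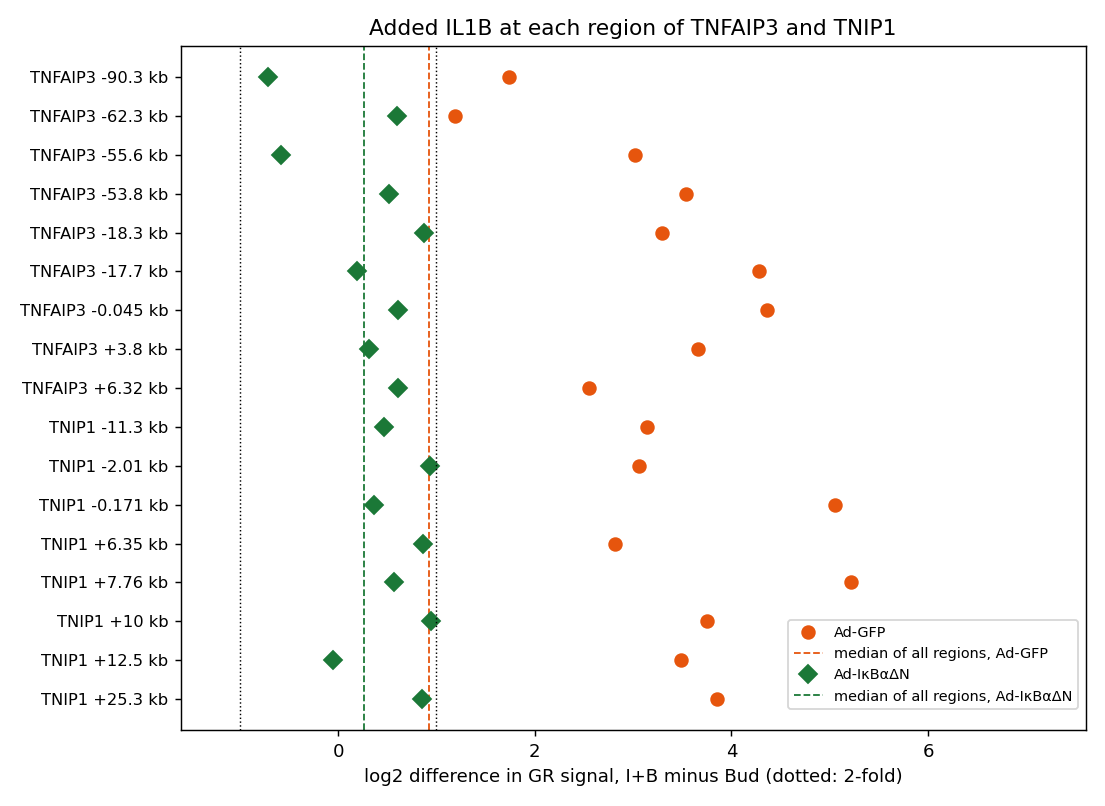
Log2 difference in GR signal between I+B and Bud at each of the 17 regions, named by gene and distance from its start, in Ad-GFP (circles) and Ad-IκBαΔN (diamonds); dashed lines are the medians of all 10740 regions and dotted lines mark 2-fold. Ad-GFP points run from 1.19 to 5.22 and Ad-IκBαΔN points from -0.71 to 0.94.

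Set directly against each other with I+B, Ad-IκBαΔN was lower than Ad-GFP at all 17 regions and at least 2-fold lower at 16, where 46.5% of all regions were 2-fold lower and 5.97% higher. With the scale steps divided out 13 stayed 2-fold lower, while all regions split into 2407 lower and 2758 higher, against 4998 and 641 as deposited. The median log2 difference was -2.33 at TNFAIP3 and -2.42 at TNIP1, against -2.01 for the increasing class and -0.85 for all regions. The TNIP1 start region differed most, with 357 and 16.8, a difference of -4.33. It was followed by the TNFAIP3 region at 55.6 kb upstream, with 462 and 32.2 (-3.80), and the TNIP1 region at 7.76 kb, with 251 and 17.6 (-3.76). The TNFAIP3 start region had 153 and 16.8, a difference of -3.11, and the intronic region at 6.32 kb 257 and 55.3, a difference of -2.20.

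The exception was the TNFAIP3 region at 62.3 kb upstream, with 44.9 and 35.6, a difference of -0.33. Its percentile with I+B was 49.1 with the control virus and 72.0 under Ad-IκBαΔN, and its difference was above 0, at up to 0.63, under some of the other scalings. Taken as I+B minus Bud, the response was at least 2-fold smaller in Ad-IκBαΔN at 16 regions and larger at 0, where 47.4% and 7.98% of all regions were. With the scale steps divided out it was smaller at 14 and larger at 0, while all regions split into 3284 smaller and 3062 larger. After quantile normalization it was smaller at 12. At 62.3 kb the difference in response was -0.59 on the log2 scale as deposited. Under some of the other scalings it was above 0 there, at up to 0.37. As deposited the difference reached -4.69 at the TNIP1 start region and -4.66 at 7.76 kb. These comparisons share the I+B and Bud values of Ad-GFP with those above, so they do not add independent support to them.

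Without IL1B few regions differed 2-fold between the viruses. With Bud, 1 of 17 regions was 2-fold higher in Ad-IκBαΔN and 0 lower, where 4.02% and 0.0186% of all regions were. The region was that at 17.7 kb upstream of TNFAIP3, where the signal was low, 2.86 with Ad-GFP against 6.94. Yet as deposited 15 of 17 regions were above 0 in Ad-IκBαΔN, all 8 of TNIP1 among them. Of all 10740 regions 5640 were above 0, and of the 4345 in the increasing class 3396. The median log2 difference was 0.36, against 0.32 for the increasing class and 0.02 for all regions. The largest after that region were 0.92 and 0.88 at 18.3 and 53.8 kb upstream of TNFAIP3 and 0.90 at 7.76 kb into TNIP1. They were at percentiles 94.8, 93.7 and 94.3 of all regions. Signals were low there too, at 1.85, 2.85 and 5.74 with Ad-GFP and 4.38, 6.07 and 11.6 with Ad-IκBαΔN. Quantile normalization gave 0.2, 0.21 and 0.32. At the 3 TNFAIP3 regions called higher with Bud in Ad-GFP as deposited, the differences were 0.27, -0.20 and -0.25, in the order 62.3 kb, 55.6 kb and 6.32 kb. Quantile normalization put the TNIP1 differences with Bud at 2.01 kb upstream and 6.35 and 10.0 kb downstream below 0, at -0.1, -0.15 and -0.07. In untreated cells 1 region was 2-fold higher, that at 62.3 kb with 3.54 and 8.42, where 7.21% of all regions were higher and 2.77% lower. After quantile normalization 2 were higher and 4 lower. Untreated signals were 3.54 to 12.1 in Ad-GFP and 3.70 to 12.1 in Ad-IκBαΔN.

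**Figure D4:**
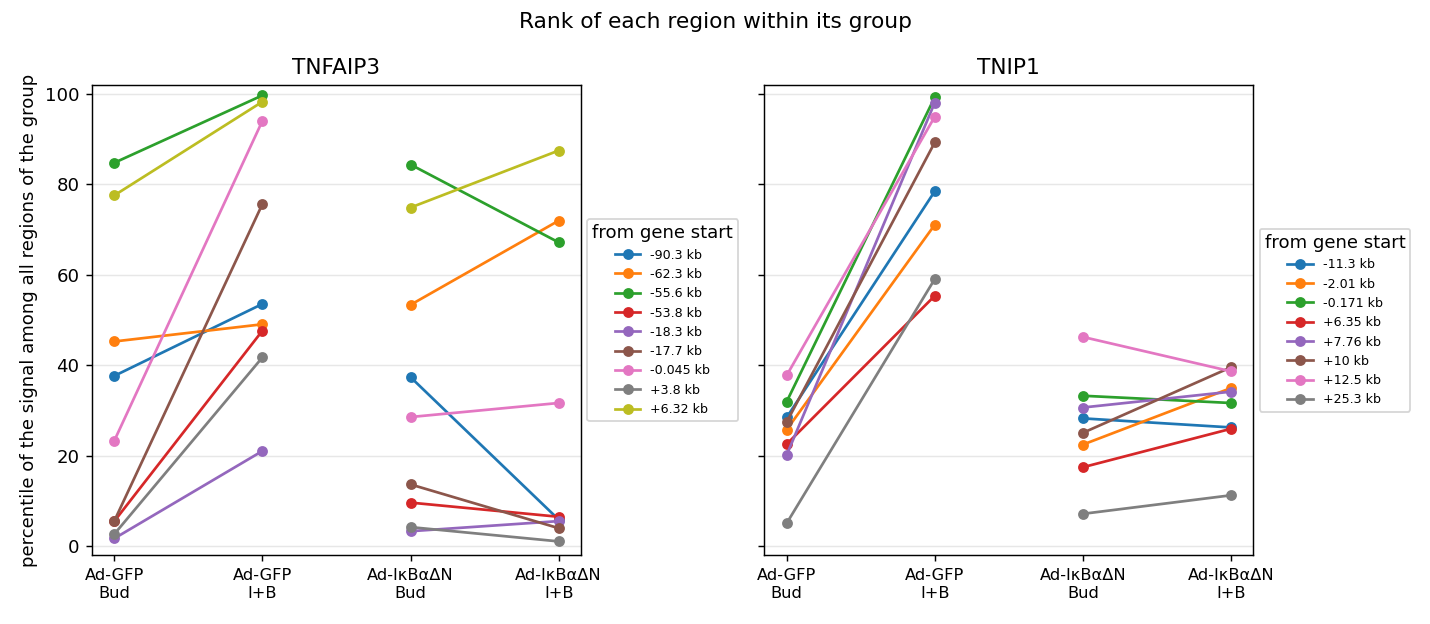
Percentile of the GR signal of each TNFAIP3 (left) and TNIP1 (right) region among all 10740 regions of the same group, for Bud and I+B in both viruses; lines join the treatments within a virus. In Ad-GFP the TNIP1 start region went from 32.0 to 99.3 and in Ad-IκBαΔN from 33.3 to 31.7, while the TNFAIP3 region at -55.6 kb went from 84.8 to 99.7 and from 84.4 to 67.2.

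Regions just outside the rule give the neighbourhood of both genes. Upstream of TNFAIP3 another 7 regions had it as their nearest protein-coding gene at 129 to 178 kb, in the long non-coding RNA genes LINC03004 and LINC02539. With I+B in Ad-GFP their signals were 43.2 to 145, against 1.75 to 13.4 with Bud, and all 7 were 2-fold higher, as 48.9% of all regions were. Under Ad-IκBαΔN they were 7.28 to 20.2 with I+B and 3.75 to 10.6 with Bud, and 4 of 7 were 2-fold higher, as 9.65% of all regions were. Downstream of TNFAIP3 the next region of the table lay 521 kb away.

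Inside TNIP1, an intronic region 38.7 kb from its start was nearer to the start of GPX3, a glutathione peroxidase gene, at 34.3 kb, and so was not counted. With Bud it had more signal in both viruses than any counted TNIP1 region. Its signals were 3.57, 31.2 and 54.6 in the order NS, Bud and I+B in Ad-GFP, and in Ad-IκBαΔN they were 9.16, 27.8 and 34.4. On the other side, the next region lay 177 kb upstream of TNIP1, with 1.67 with Bud and 44.7 with I+B in Ad-GFP.

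Other genes of the ubiquitin pathway from the IL1B receptor to NF-κB were taken from a list of 45, of which 20 had a region, 46 in all. In Ad-GFP, I+B against Bud was higher at 29 of the 46 and lower at 3, with a median log2 difference of 2.18, against 48.9% and 6.07% of all regions. With the steps divided out it was higher at 21 and lower at 15. In Ad-IκBαΔN it was higher at 5 and lower at 0, with a median of 0.41, against 9.65% and 0.94% of all regions, a share near that background. The 6 genes with the largest difference at their lead region, the region with the highest mean over the groups, were all higher in Ad-GFP. They were IKBKB, which encodes the kinase IKKβ that marks IκB for destruction (8.71 with Bud, 125 with I+B), TAB2, a ubiquitin-binding partner of the kinase TAK1 (2.17 and 39.1), and CYLD, another deubiquitinating enzyme that limits NF-κB (5.21 and 76.0). The kinase gene RIPK2 (3.62 and 50.7), the adaptor gene TRAF3 (7.71 and 95.8) and IRAK3, which encodes an inhibitory member of the kinases of the IL1B receptor (31.6 and 358), followed.

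In Ad-IκBαΔN the same 6 lead regions had I+B signals of 17.4, 11.7, 15.7, 14.6, 8.87 and 56.5, with log2 differences from Bud of 0.59, 1.15, 0.56, 0.53, -0.10 and 0.58. Of A20's other partners, TNIP2 had 4.52 with Bud and 52.9 with I+B in Ad-GFP, and TAX1BP1, an adaptor of A20, went the other way with 47.3 and 20.5. RIPK1, a kinase that A20 is known to act on, had 41.1 and 13.6, and the IL1B receptor gene IL1R1 161 and 67.7.

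By the shape of its 6 values, the lead region of TNFAIP3 at 55.6 kb upstream was nearest to those of CREB3L3, PTGS2, EIF5, PNRC1 and TESC among the 4261 genes. Their root mean square differences from it were 0.213 to 0.340 on the log2 scale, after each profile was centred on its own mean. PTGS2, the gene of the prostaglandin-producing enzyme COX-2, had 72.6 with Bud and 530 with I+B in Ad-GFP, and in Ad-IκBαΔN had 68.4 and 53.4. By the same rule the lead region of TNIP1 was that at 12.5 kb, nearest to those of HIVEP2, MN1, SFRP5, EBLN1 and ABCC3, with differences of 0.162 to 0.209. The lead regions of TNFAIP3 and TNIP1 differed by 0.855, which put TNIP1 at rank 237 in likeness to TNFAIP3 and TNFAIP3 at rank 1477 in likeness to TNIP1. The likeness rests on 6 values each, and none of these 5 genes was among the 5 nearest when Pearson correlation was used, for either gene.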

How the data were processed

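The deposited table gives, per the file headers, a GR binding intensity on a log2 scale for 10740 regions, 1 value for each of 6 groups, and the authors' log2 difference from the untreated group, which equals the difference of the intensities. Per the submitters' processing notes, tools included Bowtie2 2.4.4, MACS2 2.2.7.1 and DiffBind 3.2, beside bcl2fastq, SAMtools and FastQC 0.10.1, and the genome was hg38. The sources used here do not say which of them gave the intensities, or how libraries were combined and groups scaled. The form log2(signal + 1) was worked out from the values: signal times 400 bp, the region width, was a whole multiple of 1, 1 and 3 in untreated, Bud and I+B cells of Ad-GFP, and of 1 and 1.5 in Bud and I+B cells of Ad-IκBαΔN, with no step found in its untreated cells. The depth of the libraries is unknown. In the table, Ad-IκBα stands for what the labels name Ad-IκBαΔN.

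Differences were taken between groups and called at 2-fold, with no test. Genes came from GENCODE 44, sequences from hg38, with coordinates counted from 1. All 10740 regions lay inside the chromosomes. All regions were named. From the pathway list, the 6 lead regions with the largest difference were named, with TNIP2, TAX1BP1, RIPK1 and IL1R1 chosen after their values were seen. The members, lists and rules were chosen with earlier results of these data known. Counting, motif search and gene links were tested on simulated data. Alternatives were other scalings, pseudocounts, link rules and motif settings. The series' 12 libraries of RELA and 2 of input were left out and not analysed here. Python 3.11.15, numpy 2.4.6, pandas 2.3.3 and matplotlib 3.10.9 were used.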

Additional observations from a re-analysis of the deposited data

Results flagged for a closer look

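In the table as deposited, the response to added IL1B had opposite directions in the 2 viruses at 3 regions. Each rests on 1 value per group, and the difference was not tested. In Ad-IκBαΔN, I+B was below Bud at 3485 of all 10740 regions and at 597 of the 4345 in the increasing class. At 55.6 kb upstream of TNFAIP3 the log2 difference of I+B from Bud was 3.02 with the control virus Ad-GFP and -0.58 under Ad-IκBαΔN. At 90.3 kb upstream of TNFAIP3 it was 1.74 and -0.71. At 12.5 kb into TNIP1 it was 3.49 and -0.05, the last close to 0. Over the scalings tried, the Ad-IκBαΔN differences stayed below 0 at all 3, at -1.14 to -0.51, -1.22 to -0.54 and -0.60 to -0.04 in the order named. Other regions also fell below 0 in Ad-IκBαΔN under some scalings. At TNFAIP3 those at -17.7, 3.8 and -53.8 kb reached -0.47, -0.42 and -0.15. At TNIP1 the start region and that at -11.3 kb reached -0.19 and -0.07.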

How the results depend on the processing

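No paired analysis was possible because the table holds 1 value per group, and for the same reason no library could be left out. All 10 comparisons were recomputed at the 17 regions under 6 other scales and pseudocounts. Of these 1020 differences, 819 kept their side of 2-fold, 78 fell short of it, 56 newly passed it, 33 passed it opposite to a deposited difference short of it, and 34 past it changed sign or came to 0. Of the 34, 28 were I+B against NS, 5 Bud against NS and 1 I+B against Bud. The cause was not tested.

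Per comparison, 50 to 69 differences kept their side in the 4 that set a treatment against untreated cells, and 92 to 97 in the other 6. I+B against Bud in Ad-GFP was 2-fold higher at 13 to 17 regions, and I+B in Ad-IκBαΔN against Ad-GFP 2-fold lower at 13 to 16. In both comparisons the sign changed only at 62.3 kb upstream of TNFAIP3. There I+B against Bud in Ad-GFP was -0.33 with the steps divided out. With I+B, Ad-IκBαΔN against Ad-GFP ran from -0.34 to 0.63 there. With the steps divided out or after quantile normalization, I+B against Bud in Ad-IκBαΔN gave 2 and 1 lower, and with no pseudocount 2 higher.

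Counts against untreated cells depended on the scale. I+B against NS in Ad-GFP gave 8, 6, 8 and 11 higher (common median, quantile, unchanged class, steps divided out), with 1, 1, 1 and 0 lower. In Ad-IκBαΔN it gave 1, 1, 0 and 3 higher and 5, 8, 9 and 0 lower, with 5 higher at a pseudocount of 5. Bud against NS under the first 3 gave 1, 2 and 0 higher and 9, 7 and 12 lower in Ad-IκBαΔN, and 2, 3 and 0 higher and 13, 9 and 14 lower in Ad-GFP, where 3 and 3 were called as deposited. Between viruses with Bud, 5 were higher with no pseudocount and 0 after quantile normalization or with a pseudocount of 5. In untreated cells 2 were higher and 4 lower after quantile normalization, and 0 higher with a pseudocount of 5.

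Among differences past 2-fold as deposited, the signs that changed were as follows, first for I+B against NS in Ad-GFP. With a common median the values were 0.0, -0.24, -1.17 and -0.05 at TNFAIP3 (-90.3, -53.8, -18.3 and 3.8 kb) and -0.07 and -0.34 at TNIP1 (-2.01 and 6.35 kb). After quantile normalization they were -0.07, -0.32 and -1.51 at the first 3 of these TNFAIP3 regions and -0.50 and -0.63 at both TNIP1 regions. With the unchanged class as centre they were -0.22, -1.15 and -0.03 at the last 3 TNFAIP3 regions and -0.04 and -0.32 at both TNIP1 regions. With the steps divided out the value at -18.3 kb was -0.21.

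For I+B against NS in Ad-IκBαΔN, they were -0.41 and -0.31 (TNFAIP3 at -90.3 kb and start) and -0.13, -0.25 and -0.11 (TNIP1 at -2.01, 10.0 and 12.5 kb) with a common median. At the same regions they were -0.86, -0.76, -0.58, -0.70 and -0.56 with the unchanged class as centre, and after quantile normalization -0.21 at 10.0 kb. For Bud against NS in Ad-IκBαΔN, the region at -62.3 kb had 0.0 (common median), -0.24 (quantile) and -0.48 (unchanged class), where -90.3 kb had -0.05 and TNIP1 at 12.5 kb -0.42. Differences short of 2-fold as deposited are not listed, and some of them changed sign too. With a common median, I+B against NS in Ad-IκBαΔN went from 0.34 to -1.15 at TNFAIP3 -17.7 kb. At the TNIP1 start region it went from 0.73 to -0.76.

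A GRE match was found in 0 of 17 regions with at most 1 mismatch and in 5 with at most 3. Linking to starts of any gene type left 6 regions, and limits of 50 and 200 kb gave 13 and 24. Signals near the untreated level, under about 12.1, limit what folds at weak regions can show.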
